A study of Homo sapiens with 9 samples.

Results

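Most genes that 1% O2 induced in Hep3B cells, a human liver cancer line, were lower again when 32-134D, an inhibitor of hypoxia-inducible factors, was added, and the 7 genes described here went the other way. NGFR, TMEM156, AREG, TMEM40, NKAIN1, RNF150 and GAL had more reads in vehicle at 1% O2 than in vehicle at 20% O2, and more again with 32-134D at 1% O2. They are 7 of 60683 genes in the count table and 7 of the 22672 tested, and they were found by their gene symbols. The set was chosen for this pattern from measured values of the same 9 libraries, so the members' own differences between groups are descriptions and carry no test.

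Hep3B cells received vehicle (DMSO) or 32-134D 1 day after plating and then spent 24 hours at 20% or 1% O2. The 3 groups, vehicle at 20% O2, vehicle at 1% O2 and 32-134D at 1% O2, hold 3 libraries each, which the labels call biological replicates. The series has no library of cells given 32-134D at 20% O2. All cells came from 1 line kept with serum, in DMEM/F12 by the labels and in high-glucose DMEM by the paper's methods. The labels, unlike the paper, give no dose of 32-134D. Libraries held 6013980 to 40549699 counted reads, the smallest being replicate 2 of vehicle at 20% O2. Levels are in CPM, counts scaled to library size after TMM correction, and each unit of CPM stood for 6.37 to 37.7 reads. Replicate 3 of 32-134D stood apart from its group, its counts differing from those of replicates 1 and 2 by a chi-square per degree of freedom of 40.5 and 36.2, against 2.08 between those libraries and at most 13.3 within the vehicle groups, so values are also given without it. All 8 hepatocyte markers were expressed, summing to 11363 to 19371 CPM per library, so the labelled liver origin shows in every library. In bulk RNA, fewer cells with a transcript and less transcript per cell cannot be told apart.

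Hypoxia-inducible factors (HIFs) are heterodimers of an oxygen-labile alpha subunit and a stable beta subunit, and they bind short hypoxia response elements to raise transcription of target genes when oxygen is low. The 7 genes belong to no single pathway. NGFR encodes the p75 neurotrophin receptor, AREG encodes amphiregulin, a ligand of the EGF receptor released from the membrane by proteolysis, and GAL encodes the precursor of the neuropeptide galanin. NKAIN1 encodes a membrane protein of a small family, RNF150 a RING finger protein of the PA-TM-RING ubiquitin ligase family, and TMEM156 and TMEM40 encode transmembrane proteins with little known function.

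The regions before the transcription starts were read for short motifs of such factors. RefSeq promoters (GRCh38.p14, the 250 bases before the start) were listed for 5 of the 7 members, all but NGFR and GAL, and were searched on both strands for ACGTG and GCGTG, the cores of hypoxia response elements, for TGACGTCA, the cAMP response element, and for TGANTCA, the AP-1 element. GCGTG is also the core of the element bound by the aryl hydrocarbon receptor (AhR), a ligand-activated factor that senses xenobiotics, so the letters do not tell these apart. The 4 windows with a match are printed 5′ to 3′ on the gene's strand with the matches in capitals. They lie at chr4:74444886-74445135 (plus strand) for AREG, chr1:31239888-31240137 (minus) for NKAIN1, chr4:39032410-39032659 (minus) for TMEM156 and chr4:141133470-141133719 (minus) for RNF150.
AREG: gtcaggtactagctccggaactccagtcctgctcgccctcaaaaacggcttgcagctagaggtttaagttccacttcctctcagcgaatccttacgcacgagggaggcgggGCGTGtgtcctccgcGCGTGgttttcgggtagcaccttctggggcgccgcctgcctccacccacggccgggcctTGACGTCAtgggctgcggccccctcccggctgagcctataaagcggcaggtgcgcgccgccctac
NKAIN1: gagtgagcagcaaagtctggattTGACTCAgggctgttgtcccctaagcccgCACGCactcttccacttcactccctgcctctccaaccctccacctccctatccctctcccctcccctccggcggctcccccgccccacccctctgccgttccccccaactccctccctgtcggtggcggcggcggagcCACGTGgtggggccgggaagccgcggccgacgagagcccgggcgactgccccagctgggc
TMEM156: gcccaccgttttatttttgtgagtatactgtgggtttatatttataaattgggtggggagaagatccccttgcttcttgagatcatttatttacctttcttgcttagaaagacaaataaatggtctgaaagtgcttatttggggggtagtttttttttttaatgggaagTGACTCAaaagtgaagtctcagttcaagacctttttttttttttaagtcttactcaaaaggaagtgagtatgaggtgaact
RNF150: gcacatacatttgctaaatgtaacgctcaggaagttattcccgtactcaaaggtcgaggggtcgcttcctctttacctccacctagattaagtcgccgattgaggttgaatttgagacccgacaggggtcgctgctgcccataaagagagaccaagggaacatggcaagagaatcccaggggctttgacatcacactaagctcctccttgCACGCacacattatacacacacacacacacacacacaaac

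AREG held 2 GCGTG matches, 139 and 124 bases before the start, and a cAMP response element at 65. NKAIN1 held CACGTG, a palindrome that counts as overlapping ACGTG matches at 60 and 59 bases, a GCGTG match on the other strand (printed CACGC) at 198 and an AP-1 element at 227. TMEM156 held an AP-1 element at 81 and RNF150 a GCGTG match on the other strand at 40. TMEM40 held none of the 4 motifs, and its listed window lies inside an exon of another of its transcripts. Counted over the 5 members, GCGTG was in 3, TGANTCA in 2, ACGTG in 1 and TGACGTCA in 1. Of 35114 promoters of this length in the table, 32.2% hold GCGTG, 6.57% TGANTCA, 18.5% ACGTG and 1.65% TGACGTCA. A match is a description of these letters, binding was not measured, and the starts of TMEM156, TMEM40 and RNF150 lie inside the span GENCODE gives the gene.

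A gene was called when its Benjamini-Hochberg FDR from the edgeR quasi-likelihood test was below 0.05 and its fold change above 1.5. By this rule 4412 genes were called higher in hypoxia, 19.5% of those tested, and 3675 higher with 32-134D than in vehicle at 1% O2, 16.2%. Of the 4412 induced genes, 2787 were called lower with 32-134D and 6 were called higher, and these 6 are 0.0265% of the genes tested. Among the 6 are 5 of the 7 members, NGFR, TMEM40, RNF150, NKAIN1 and AREG. Without replicate 3 of vehicle at 20% O2 or replicate 1 of vehicle at 1% O2 the 6 genes became 2, of which NGFR was the 1 member. Without replicate 3 of 32-134D the members so called were NGFR and RNF150. TMEM156 and GAL were called higher with 32-134D but did not pass in hypoxia, where their log2 fold changes were 1.01 (SE 0.60) and 1.10 (SE 0.59). The sixth gene is DUSP15, which encodes a dual-specificity phosphatase and is no member. Since the same values chose the members, nothing about them is read from these shares.

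**Figure D1:**
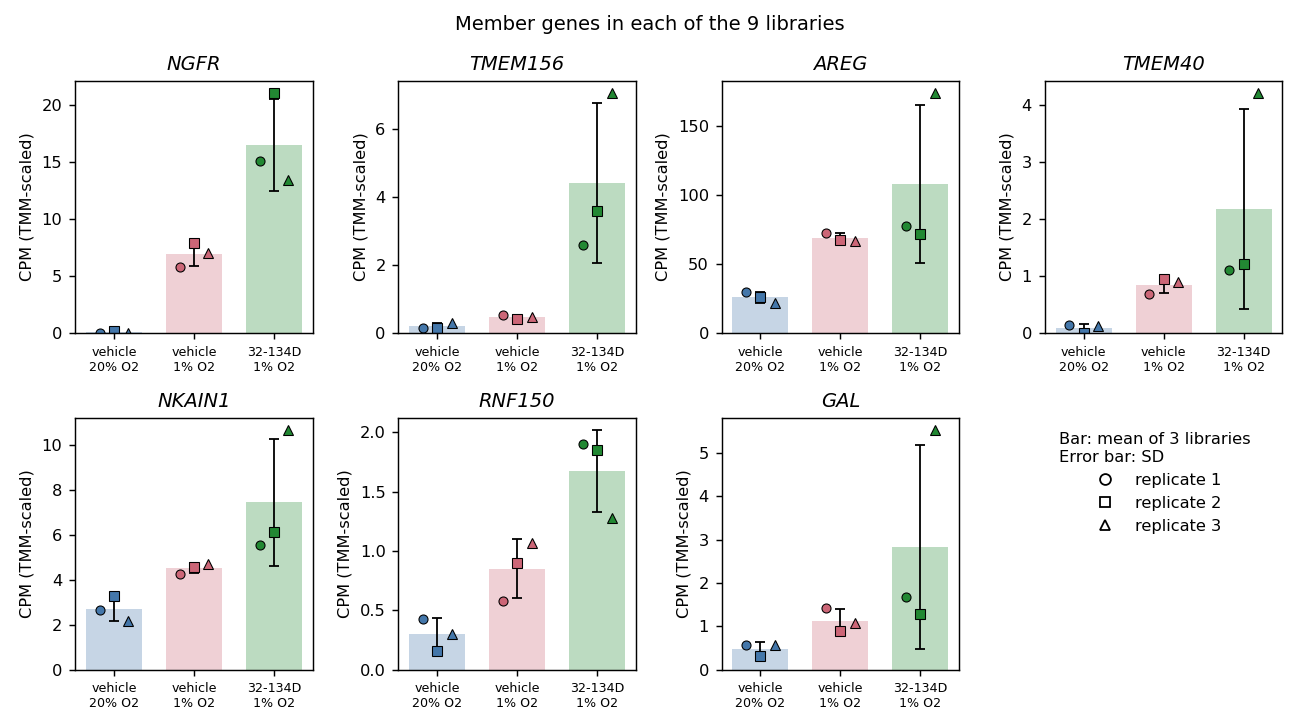
CPM (TMM-scaled, linear axes from 0) of each member in the 9 libraries, 1 panel per gene. Bars are means of 3 libraries, error bars their SD and symbols the replicates. Every member is lowest in vehicle at 20% O2, and the triangle of replicate 3 in the 32-134D group stands above the other symbols for TMEM156, AREG, TMEM40, NKAIN1 and GAL and below them for NGFR and RNF150.

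NGFR, the receptor of the set, had almost no reads without hypoxia. Its counts were 0, 1 and 0 in vehicle at 20% O2, 219, 167 and 202 in vehicle at 1% O2, and 532, 624 and 292 with 32-134D. In CPM, vehicle at 1% O2 stood at 5.80, 7.87 and 6.98 and 32-134D at 15.1, 21.01 and 13.4. All libraries of each group lay above all of the group before it. The pooled counts, scaled by library size, were 356 times higher in hypoxia than in normoxia, with a 95% exact binomial interval of 63.6 to 14084 that the single normoxic read makes wide. With 32-134D they were 2.49 times higher than in vehicle at 1% O2 (95% interval 2.26 to 2.75). Such intervals cover counting error only, and the fitted log2 fold change of the 32-134D comparison, which includes the spread between libraries, was 1.27 (SE 0.19). Replicates 1 and 2 of 32-134D alone gave a ratio of 2.66 (2.41 to 2.94). NGFR lies on chromosome 17 at 49495293 to 49515017 (GRCh38, plus strand), and the 3 annotated genes that overlap it, AC006487.1, MIR6165 and AC015656.1, held 1, 5 and 0 reads over all libraries.

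AREG was the most abundant member. It measured 29.6, 26.2 and 21.9 CPM in vehicle at 20% O2, 72.5, 67.2 and 66.5 in vehicle at 1% O2, and 77.7, 72.0 and 174 with 32-134D. The vehicle groups did not overlap, while replicate 2 of 32-134D lay just below replicate 1 of vehicle at 1% O2. In hypoxia AREG was 2.83 times higher by pooled counts (95% interval 2.67 to 3.01, log2 fold change 1.42, SE 0.26). With 32-134D it was 1.44 times higher (1.396 to 1.49, log2 fold change 0.64, SE 0.24), a mean of 1.08 times in replicates 1 and 2 together and 2.51 times in replicate 3. Left with replicates 1 and 2 of 32-134D, its log2 fold change was 0.12.

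GAL, the other secreted ligand, was low throughout. Its counts were 8, 2 and 19 in vehicle at 20% O2 and 54, 19 and 31 in vehicle at 1% O2, which is 0.574, 0.314 and 0.578 CPM against 1.43, 0.896 and 1.07. With 32-134D the counts were 59, 38 and 121, or 1.67, 1.28 and 5.53 CPM. Replicate 2 of 32-134D lay within the range of vehicle at 1% O2 and replicate 3 far above it. The pooled ratios were 2.17 (95% interval 1.43 to 3.40) in hypoxia and 2.12 (1.67 to 2.71) with 32-134D, and the log2 fold change with 32-134D was 1.24 (SE 0.44), or 0.35 without replicate 3.

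NKAIN1 had the smallest ratio of the set in hypoxia. It measured 2.65, 3.30 and 2.19 CPM in vehicle at 20% O2, 4.27, 4.57 and 4.70 in vehicle at 1% O2, and 5.56, 6.13 and 10.7 with 32-134D. No groups overlapped, with ratios of 1.83 (95% interval 1.50 to 2.25) in hypoxia and 1.57 (1.38 to 1.79) with 32-134D. Its log2 fold changes were 0.82 (SE 0.26) and 0.71 (SE 0.22), and the second was 0.37 without replicate 3 of 32-134D.

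RNF150 was low in every group. Its counts were 6, 1 and 10, then 22, 19 and 31, then 67, 55 and 28 in the 3 groups, and its levels 0.430, 0.157 and 0.304 CPM, then 0.583, 0.896 and 1.07, then 1.90, 1.85 and 1.28. The groups did not overlap, and here replicate 3 of 32-134D was the lowest of its group. The ratios were 2.56 (95% interval 1.50 to 4.64) in hypoxia and 2.11 (1.58 to 2.83) with 32-134D, with log2 fold changes of 1.37 (SE 0.41) and 1.02 (SE 0.29). Replicates 1 and 2 of 32-134D alone gave a ratio of 2.29 (1.70 to 3.11).

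TMEM156 had the largest ratio of the set with 32-134D against vehicle at 1% O2. Its counts in vehicle were 2, 1 and 10 at 20% O2 and 20, 9 and 14 at 1% O2, equal to 0.143, 0.157 and 0.304 against 0.530, 0.424 and 0.484 CPM. With 32-134D there were 91, 106 and 154 reads, or 2.58, 3.57 and 7.04 CPM. Every 32-134D library was several times above every vehicle library. The ratio was 2.002 in hypoxia (95% interval 1.06 to 4.06) and 8.26 with 32-134D (6.01 to 11.6), where replicates 1 and 2 alone gave 6.20 (4.44 to 8.83). The log2 fold change with 32-134D was 3.14 (SE 0.37), and 2.64 without replicate 3. In hypoxia it was 1.01, but 1.68 without replicate 3 of vehicle at 20% O2, which held 10 of the 13 normoxic reads, and 1.86 with all libraries thinned to the smallest.

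TMEM40 had 2, 0 and 4 reads in vehicle at 20% O2, 26, 20 and 26 in vehicle at 1% O2, and 39, 36 and 92 with 32-134D. These equal 0.143, 0 and 0.122 CPM, then 0.689, 0.943 and 0.899, then 1.11, 1.21 and 4.21. The groups did not overlap, but replicates 1 and 2 of 32-134D lay close above vehicle at 1% O2. The ratios were 7.26 in hypoxia (95% interval 3.18 to 20.5) and 2.35 with 32-134D (1.77 to 3.14), and replicates 1 and 2 alone gave 1.41 (1.01 to 1.97). Its log2 fold changes were 2.84 (SE 0.80) and 1.33 (SE 0.45), and the second was 0.48 without replicate 3.

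Counting libraries, all 7 members had vehicle at 1% O2 above vehicle at 20% O2 without overlap, as 32.3% of tested genes did, and 5 of the 7, all but AREG and GAL, had every 32-134D library above every library of vehicle at 1% O2, as 25.4% of tested genes did. The comparison of 32-134D with vehicle at 20% O2 joins the comparisons that chose the members, so it too is a description. Its pooled ratio ran from 2.88 for NKAIN1 to 17.1 for TMEM40, with NGFR at 887 (95% interval 159 to 35062).

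**Figure D2:**
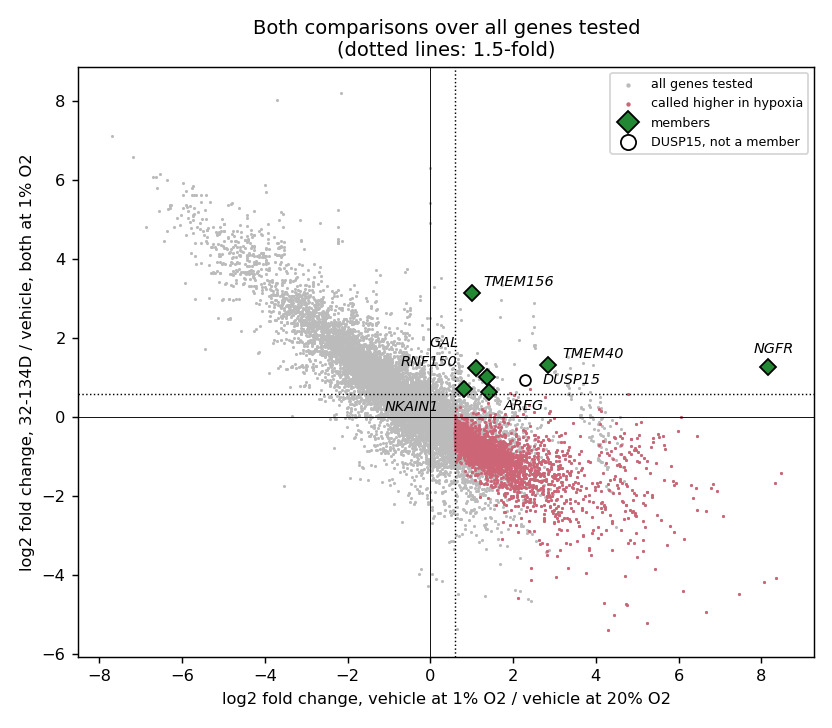
Log2 fold change of the 22672 tested genes in hypoxia (vehicle at 1% O2 against vehicle at 20% O2, x axis) and with 32-134D (against vehicle at 1% O2, y axis), with dotted lines at 1.5-fold. Grey points are all genes, pink points the 4412 called higher in hypoxia, diamonds the members and the open circle DUSP15. Most pink points lie below 0 on the y axis and the 7 members above its dotted line, with NGFR far to the right on a value that rests on 1 normoxic read.

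Over all genes tested the median log2 fold change with 32-134D was -0.01, and over the 4412 induced genes it was -0.73. Of those, 36 had a value above 0. Among the induced genes called higher with 32-134D, those nearest the fold threshold were AREG (log2 fold change 0.64), NKAIN1 (0.71) and DUSP15 (0.93, SE 0.19). The induced genes not called with the highest values were DLL1, a Notch ligand, at 0.72 (SE 0.52), DRAXIN, an axon guidance protein, at 0.62 (SE 0.42), and TMIGD2, an immunoglobulin domain receptor, at 0.58 (SE 0.70). DLL1 and DRAXIN were past the fold threshold and missed the call by their FDR. DLL1 measured 0.539, 0.707 and 2.56 CPM in the 32-134D libraries, and without replicate 3 its value turned to -0.22. DUSP15 measured 1.91, 2.03 and 1.56 CPM in vehicle at 1% O2 and 3.46, 3.70 and 3.29 with 32-134D, and it was the most even of the 6 genes over the 32-134D libraries.

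Levels of different genes were compared as CPM per kilobase of exon, with lengths from GENCODE version 29. In vehicle at 1% O2 the order was AREG at 41.7 ± 2.0 (SD, n = 3), NGFR at 1.66 ± 0.25, NKAIN1 at 1.51 ± 0.075, GAL at 0.871 ± 0.21, TMEM40 at 0.237 ± 0.038, TMEM156 at 0.187 ± 0.021 and RNF150 at 0.0772 ± 0.022. The libraries of NGFR and NKAIN1 overlapped on this scale, as did those of TMEM40 and TMEM156, while the other neighbours in this order did not. With 32-134D the means in the same unit were 65.4 for AREG, 3.97 for NGFR, 2.50 for NKAIN1, 2.18 for GAL, 1.72 for TMEM156, 0.611 for TMEM40 and 0.152 for RNF150. TMEM156 stood above TMEM40 in each 32-134D library, at 1.01, 1.39 and 2.75 against 0.311, 0.340 and 1.18, so this pair had changed places by the means.

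The members split by how they behaved within the 32-134D group. Replicate 3 was the highest of the 3 libraries for TMEM156, AREG, TMEM40, NKAIN1 and GAL and the lowest for NGFR and RNF150. By pooled counts scaled to library size, it held 3.71 times the level of replicates 1 and 2 together for GAL (95% interval 2.81 to 4.89), 3.64 times for TMEM40 (2.66 to 5.01), 2.32 times for TMEM156 (1.87 to 2.88), 2.31 times for AREG (2.22 to 2.41) and 1.84 times for NKAIN1 (1.56 to 2.17). For NGFR the ratio was 0.750 (0.658 to 0.854) and for RNF150 0.682 (0.435 to 1.03). GAL, TMEM40, TMEM156 and AREG, 4 members in all, exceeded the mean of the other libraries over 2-fold in replicate 3, against 2.9% of all tested genes and 4.35% of the 3675 genes called higher with 32-134D. The split is a description of 1 library against 2, and it was seen on the values that chose the members.

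**Figure D3:**
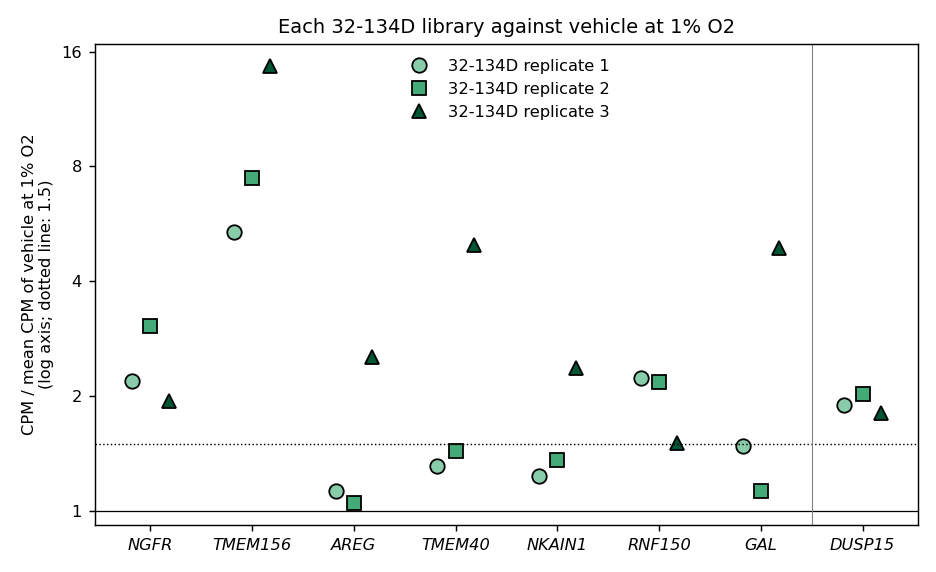
CPM of each member and of DUSP15 in each 32-134D library, divided by the mean CPM of vehicle at 1% O2 (log axis, dotted line at 1.5). Circles, squares and triangles mark replicates 1, 2 and 3. Replicate 3 stands highest for 5 members, up to 14.7-fold for TMEM156, and lowest for NGFR and RNF150, at 1.94-fold and 1.51-fold.

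Replicate 3 stood apart over the whole table, by the chi-square values given above. Targets of AhR moved with it. CYP1A1, an AhR-induced oxidase, measured 104, 128 and 1086 CPM in the 32-134D libraries, so that replicate 3 held 9.37 times the mean of the others, and the same ratio was 9.80 for AHRR, the receptor's repressor (ENSG00000286169, the more deeply counted of the identifiers that carry this symbol), 5.76 for CYP1B1 and 2.36 for TIPARP. NQO1 and ALDH3A1 had ratios of 1.19 and 0.864. Of the 7 listed AhR genes, CYP1A1, CYP1B1, AHRR and NQO1 were called higher with 32-134D, NQO1 no longer so (log2 fold change 0.52) without replicate 3 of 32-134D, or without replicate 3 of vehicle at 1% O2, and TIPARP rose and NQO1 fell in hypoxia. The 7 AhR genes summed to 219 to 1429 CPM with 32-134D, 151 to 155 in vehicle at 1% O2 and 47.7 to 53.5 in vehicle at 20% O2. The 8 hepatocyte markers moved the other way, summing to 11363 CPM in replicate 3 against up to 17742 in the group, with FGB at 0.206 and TTR at 0.271 times the other libraries. The part of either in the members' values was not tested.

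The ligands, receptors and other partners of the members were counted next, 84 genes in 12 lists, of which 61 were tested. In hypoxia 14 of the 61 were called higher (23.0%) and 14 lower (23.0%), where 19.5% and 20.3% of all tested genes were. With 32-134D against vehicle at 1% O2, 15 were higher (24.6%) and 11 lower (18.03%), beside 16.2% and 13.7%. Their median log2 fold changes were 0.20 and 0.06. No partner was called higher in both, beside 0.0265% of all tested genes, and 22 were called in opposite directions. Over the 22672 tested genes, 2787 rose in hypoxia and fell with 32-134D, and 3280 did the reverse. As a reference, all 12 listed HIF targets rose in hypoxia and fell with 32-134D (EGLN3 was not called in hypoxia, at 0.57, without replicate 3 of vehicle at 1% O2), with CA9, a carbonic anhydrase, at 4.38 and -3.36 on the log2 scale and VEGFA, an angiogenic factor, at 2.45 and -1.81.

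**Figure D4:**
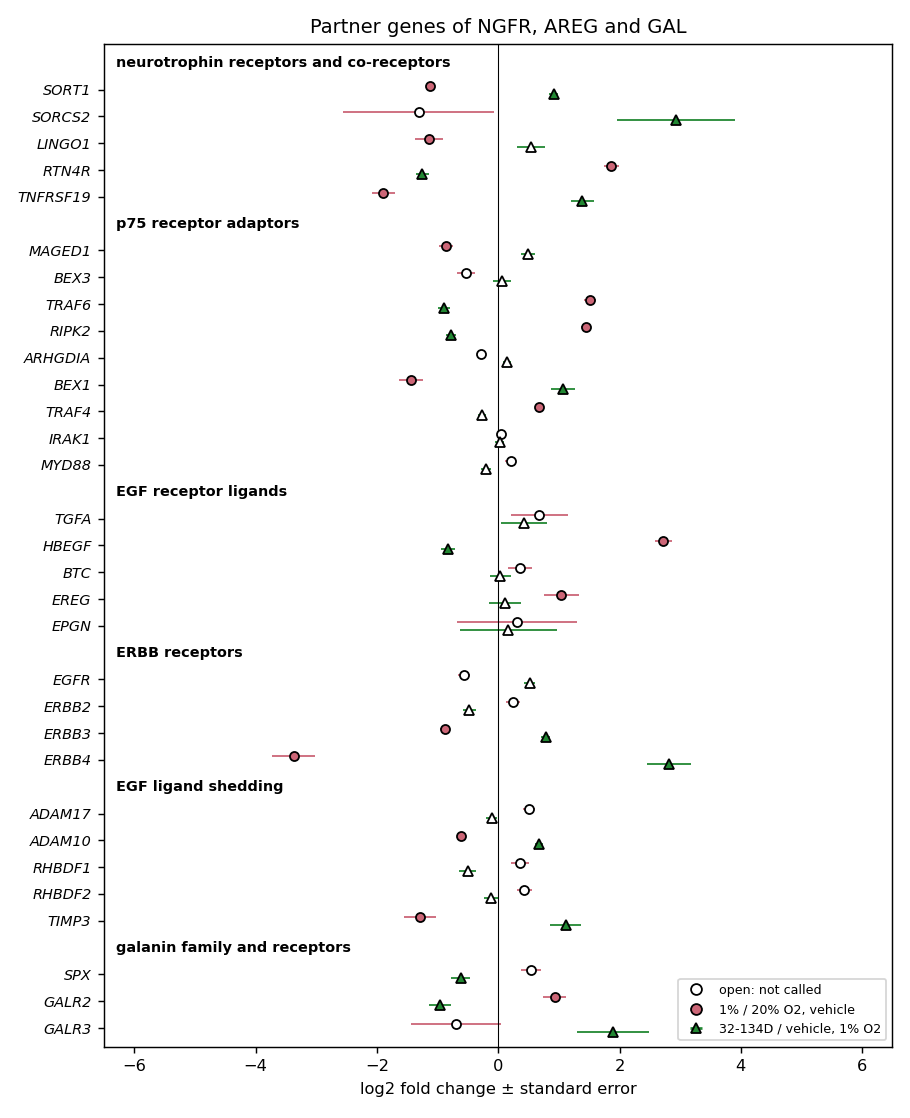
Log2 fold change with its standard error of the tested partner genes of NGFR, AREG and GAL in 6 of the lists, in hypoxia (circles, vehicle at 1% against 20% O2) and with 32-134D (triangles, against vehicle at 1% O2). Filled symbols passed the call and open symbols did not. Called circles and triangles of 1 gene lie on opposite sides of 0 in every row with both filled.

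Around NGFR, the neurotrophin gene NTF3 and the 3 Trk receptor genes were below the test's filter, NTRK3 with no read at all, and neither tested ligand was called. SORT1, the sortilin that pairs with p75 to bind proneurotrophins, fell in hypoxia by 1.12 on the log2 scale (SE 0.076, edgeR FDR 1.2e-08) and rose with 32-134D by 0.91 (SE 0.075, FDR 2.2e-07). RTN4R, the Nogo receptor that signals with p75, went the other way at 1.86 (FDR 1.1e-08) and -1.25 (FDR 5.7e-07). Of the other co-receptors and relatives, LINGO1 fell in hypoxia at -1.14 (FDR 0.00075) and so did TNFRSF19 at -1.89 (FDR 8.9e-07), and TNFRSF19 rose with 32-134D by 1.39 (FDR 2.6e-05). SORCS2, with 49 reads in all, rose with 32-134D by 2.93 (FDR 0.022), a call lost without replicate 3 of 32-134D or replicate 1 or 2 of vehicle at 1% O2. Of the 9 tested adaptors of p75, TRAF6 and the kinase RIPK2 rose in hypoxia (1.52 and 1.45) and fell with 32-134D (-0.90 and -0.78), TRAF4 rose in hypoxia (0.67), and MAGED1 fell (-0.87). BEX1 fell in hypoxia (-1.44) and was the 1 adaptor called higher with 32-134D (1.07).

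Around AREG, EREG, which encodes the related ligand epiregulin, rose in hypoxia by 1.04 (SE 0.29, edgeR FDR 0.0064) and was not called with 32-134D (0.11, SE 0.27, FDR 0.76). Its 32-134D libraries measured 35.4, 33.5 and 89.0 CPM, against a mean of 48.3 ± 5.12 (SD, n = 3) in vehicle at 1% O2, so replicate 3 held 2.59 times the mean of the others, which lay below vehicle. Without replicate 3 the log2 fold change with 32-134D turned to -0.49 (edgeR FDR 4.7e-05), under the 1.5-fold threshold. HBEGF, another ligand of the receptor, rose by 2.72 (FDR 6.7e-10) and fell with 32-134D by 0.83 (FDR 2.5e-05), with a replicate 3 ratio of 1.04. Of the receptors, ERBB3 fell in hypoxia by 0.89 and rose with 32-134D by 0.78, and ERBB4 fell by 3.38 and rose by 2.82. The sheddase ADAM10 fell by 0.61 and rose by 0.67, and TIMP3, an inhibitor of metalloproteinases, fell by 1.29 and rose by 1.11. Of the 10 feedback genes of the pathway, 3 rose and 2 fell in hypoxia, and 3 rose and 3 fell with 32-134D. ERRFI1, which binds and restrains the EGF receptor, rose by 1.43 and fell by 0.70, while LRIG1 and the phosphatase gene DUSP6 fell by 0.77 and 0.72 and rose by 0.60 and 0.59. SPRY4 rose with 32-134D by 2.40 (FDR 0.0010), and its libraries there measured 13.4, 13.9 and 71.1 CPM, so that it had 1.16 without replicate 3. The calls of ERRFI1 and DUSP6 with 32-134D lay near the threshold, at -0.56 without replicate 1 and 0.58 without replicate 2 of that group, where they were lost.

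Around GAL, the receptor gene GALR2 rose in hypoxia by 0.93 (edgeR FDR 0.00065) and fell with 32-134D by 0.96 (FDR 0.00037). SPX, which encodes spexin, a related peptide, fell with 32-134D by 0.62 (FDR 0.0042), and GALR3, with 40 reads in all, rose by 1.88 (FDR 0.017). The call of SPX was lost without replicate 1 of vehicle at 20% O2, replicate 3 of vehicle at 1% O2 or replicate 1 of 32-134D, with a log2 fold change of -0.50 at the weakest, and that of GALR3 without replicate 3 of vehicle at 1% O2. Of the 6 tested genes of peptide hormone processing, PAM, the amidating enzyme, rose in hypoxia by 1.38 and fell by 1.14, and no other was called.

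Around NKAIN1 and RNF150, the partners gave more calls for the second. NKAIN4, the 1 tested relative of NKAIN1, had 13 reads in all and was not called. Of the 8 tested relatives of RNF150, 3 rose and 2 fell in hypoxia, and 2 rose and 1 fell with 32-134D. RNF149, RNF13 and RNF130 rose in hypoxia (1.06, 0.76 and 0.71), and RNF149 fell with 32-134D (-0.69). RNF128 fell in hypoxia (-0.84) and rose with 32-134D (0.63), as did RNF43 (-1.29 and 0.92), which is named as the 1 called relative left.

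The 7 members lie on 5 chromosomes, with 3, TMEM156, AREG and RNF150, on chromosome 4 at 38966744 to 39032922, 74445134 to 74455009 and 140859807 to 141212877. TMEM40 lies on chromosome 3 (12733525 to 12769457), NKAIN1 on chromosome 1 (31179745 to 31239554) and GAL on chromosome 11 (68683779 to 68691175). The closest tested protein-coding genes, 2 on each side of each member, make 28 neighbours, which include EREG, EPGN and BTC of the EGF ligand list. In hypoxia 6 were called higher (21.4%) and 2 lower (7.14%), and with 32-134D 4 were higher (14.3%) and 5 lower (17.9%), beside 19.5%, 20.3%, 16.2% and 13.7% of all tested genes. None of the 28 was called higher in both comparisons, beside 0.0265% of all tested genes, and 17 were called in neither, a share not computed over all genes. The 5 neighbours lower with 32-134D, NXPH3 beside NGFR, UCP1 and ZNF330 beside RNF150, and MKRN2 and RPL32 beside TMEM40, had all risen in hypoxia. So had 2787 of the 3100 tested genes called lower with 32-134D, so this is no trait of the neighbours. The count lower in hypoxia was 1 without replicate 2 of vehicle at 1% O2 and 5 without replicate 1 of vehicle at 20% O2, and the fall of RPL32 with 32-134D (-0.60) lay at the threshold and was called in 4 of the 9 fits that leave out a library.

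**Figure D5:**
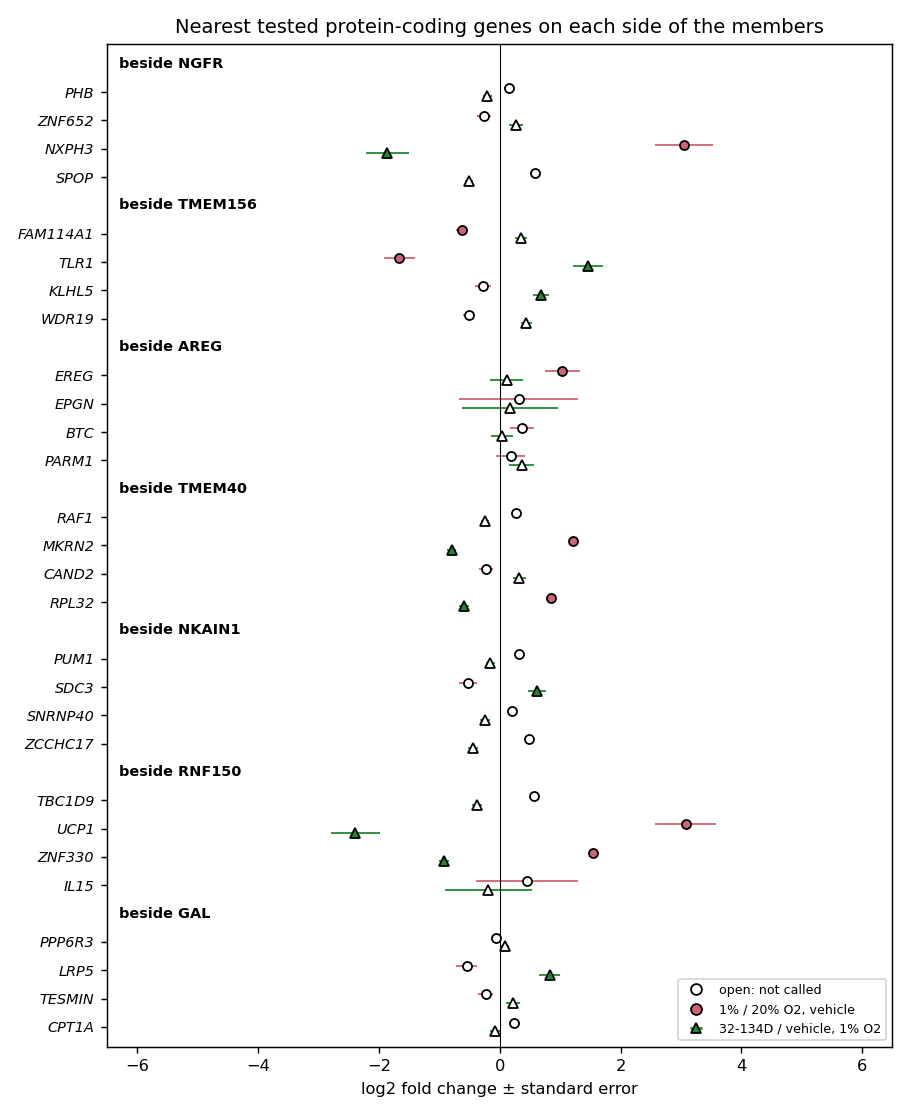
Log2 fold change with its standard error of the 28 neighbours, grouped by the member they lie beside, in hypoxia (circles) and with 32-134D (triangles). Filled symbols passed the call and open symbols did not. The 6 rows with both filled have them on opposite sides of 0, and EREG is filled in hypoxia alone.

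Among the neighbours, NXPH3, a neurexin ligand gene 60.8 kb from NGFR, had 3.05 (SE 0.48, edgeR FDR 7.1e-05) in hypoxia and -1.86 (SE 0.36, FDR 0.00057) with 32-134D. UCP1, the uncoupling protein gene 291 kb from RNF150, had 3.08 (FDR 0.00010) and -2.39 (FDR 0.00018). ZNF330, 8.0 kb from RNF150, had 1.55 and -0.92, so that genes on both sides of RNF150 followed the majority pattern. The 4 neighbours higher with 32-134D were TLR1 (1.46) and KLHL5 (0.68) near TMEM156, SDC3 (0.62) near NKAIN1 and LRP5 (0.83) near GAL. Without replicate 3 of 32-134D only TLR1 of these was called, and KLHL5, SDC3 and LRP5 had 0.44, 0.35 and 0.49.

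Genes of like pattern were taken by Pearson correlation of log2 CPM over the 9 libraries, among 12626 genes with a mean count of at least 50, as a description with no test. NGFR was most like SLC44A2 (r = 0.979), DUSP15 (0.972) and IGFBP1 (0.954), and RNF150 most like UBE3D (0.929), DUSP15 (0.914) and SLC43A2 (0.871). AREG and TMEM40 shared KRT17, a basal keratin gene (0.974 for both), and RBBP8, with DDX21 and HNRNPR as their other choices. NKAIN1 was most like AREG itself (0.956), OLFM2 and CMTM8, GAL most like GNG4 (0.966), ALDH1A1 and TRIM15, and TMEM156 most like SIPA1L2 (0.940), LUM and SPIN1. The points share 3 groups and 9 library depths. Several of these genes moved little, such as SPIN1 with log2 fold changes of 0.03 and 0.08. A high r did not require a rise in both comparisons. SLC44A2 and IGFBP1 rose in hypoxia (log2 fold changes 2.998 and 5.39) but not when the inhibitor was added (-0.016 and -0.64). The other genes chosen, DUSP15 among them (2.29 in hypoxia and 0.93 with the inhibitor), had positive values in both. By Spearman correlation 2 of the 21 choices were the same.

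Markers of other cell types that use these genes were counted beside them. Of 6 Schwann and neural crest genes, 3 were tested, SOX10 and S100B were among those below the filter, and the list summed to 20.0 to 22.5 CPM in vehicle at 20% O2, 15.3 to 19.1 in vehicle at 1% O2 and 26.3 to 68.0 with 32-134D, mainly TFAP2A, which had 23.8, 27.2 and 65.2 CPM in the 32-134D libraries. The neuroendocrine and neuronal list summed to 0.287 to 1.19 CPM over all libraries and the basal epithelial list to 0 to 0.366, with 1 and 3 of their genes at 0 throughout. The stellate and fibroblast list stood at 33.8 to 38.4 CPM at 20% O2, 14.0 to 15.4 in vehicle at 1% O2 and 29.2 to 31.3 with 32-134D, and the leukocyte list, with PTPRC, CD3E and TYROBP below the filter, stood at 23.7 to 30.1, 8.03 to 10.3 and 12.6 to 22.0. The leukocyte sum was mainly LYZ, with means of 27.2, 8.62 and 17.5 CPM in the same groups. The part of all these markers' sources in the members' values was not tested.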

How the data were processed

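RNA-seq was run on 9 cultures of Hep3B cells. The authors quality-checked reads with FastQC, trimmed them with Bbduk, aligned them to GRCh38 (Ensembl 100) with STAR and deposited raw featureCounts counts by gene, and the submitters' processing notes also name MultiQC and DESeq2. Tool versions and the strand setting are not given in the sources used here. The 9 libraries entered a single quasi-likelihood model of edgeR 4.0.16 (R 4.3.3) after TMM scaling, over 22672 genes that had 10 or more reads in all. Calls needed a Benjamini-Hochberg FDR below 0.05 over those genes and a fold change above 1.5. Each SE was computed as the absolute log2 fold change over the square root of the F statistic of the quasi-likelihood test. CPM used the TMM-scaled library sizes. The procedure was tested on simulated data. No replicate duplicated another (the chi-square per degree of freedom was 1.64 to 40.5 between pairs). The labels describe biological replicates, and 3 per group with 6013980 to 40549699 reads limit the precision.

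The members and all lists were chosen with earlier results of these data known. The genes named are the members, any other gene higher in both comparisons, the neighbours, the 3 genes most like each member, and HIF and AhR reference genes. Also named are the 3 induced genes called higher with 32-134D at the lowest fold change and the 3 uncalled ones at the highest. Of the partners, up to 4 called per list are named by mean count, and the last called where a single one was left. Hepatocyte and other cell type markers were also listed. Positions and exon lengths came from GENCODE version 29 on GRCh38, an earlier annotation of the assembly that the counts use, and promoters from RefSeq on GRCh38.p14. Protein sequences were not analysed here, and the values of a few listed genes are not reported here. The alternatives were DESeq2 1.42.0, library sizes without TMM or with RLE factors, other filters, fits of 2 groups, thinning, a 2-fold threshold, a replicate block, other measures of likeness and leaving out each library.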

Additional observations from a re-analysis of the deposited data

How the results depend on the processing

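No member's fold change turned direction under an alternative. Counts were compared by size only, and of those recomputed 221 stayed within 1.5 times of the reported value and 33 did not. The larger of a higher and a lower count could change. With 32-134D, 4 neighbours were higher and 5 lower, but 5 and 4 with total library sizes. In hypoxia 4412 genes were higher and 4595 lower, but 4577 and 4522 with no filter on low counts. With total library sizes in place of TMM, the median log2 fold change of all genes shifted by -0.21 in hypoxia and 0.18 with 32-134D, 1847 genes were lower with 32-134D, 7 partners were lower with it, and 5 neighbours were lower in hypoxia. With no filter on low counts, 12 genes were higher in both comparisons. With at least 10 counts in every library, 2824 genes were higher in hypoxia, 1771 lower with 32-134D and 2 higher in both, both of them members, and 5 neighbours were lower in hypoxia and 2 with 32-134D. That filter kept AREG and NKAIN1 alone of the members. Fits of only the groups compared called 3 members in both comparisons. Thinned to the smallest library, 2048 genes were lower with 32-134D, 2 members were called in both and 5 neighbours were lower in hypoxia. A 2-fold threshold left 2449 genes higher in hypoxia, 1188 lower with 32-134D, 3 genes higher in both (all members), 7 partners lower in hypoxia, 7 higher and 2 lower with 32-134D, and 1, 1 and 2 neighbours lower in hypoxia, higher with and lower with 32-134D. Spearman correlation kept 2 of the 21 genes of like pattern and a prior count of 0.5 kept 15. Leaving out each library in turn, 2 to 7 genes and 1 to 5 members were higher in both, 1 to 5 neighbours were lower in hypoxia and 1 to 4 higher with 32-134D. NGFR was higher in both comparisons in 17 of 18 alternatives, DUSP15 in 16, RNF150 in 14, TMEM40 in 12, NKAIN1 in 11, AREG in 8, GAL in 2 and TMEM156 in 1. The members were chosen on values of these same libraries, so their tallies describe the calls and lend the pattern no support. The alternative with at least 10 counts in every library did not test NGFR, DUSP15, RNF150, TMEM40, GAL or TMEM156 and is tallied as not higher for them. Of the recomputed member fold changes, 217 moved by less than the spread between replicates and 11 by more. In hypoxia these were TMEM156 (1.86 thinned, 1.68 without replicate 3 of vehicle at 20% O2), AREG (1.21 with total library sizes, 1.25 thinned), NKAIN1 (0.61 with total library sizes) and NGFR (3 settings). With 32-134D they were AREG, TMEM40 and GAL without its replicate 3. The cause of these shifts was not tested, beyond the fewer genes or reads that some settings keep by construction. The replicate numbers did not pair the samples, since same-numbered libraries had correlated deviations of -0.18 to 0.09 over 12626 genes, and a fit with the numbers as a replicate block called 8 genes higher in both, 6 of them members. Low counts limit TMEM156, TMEM40, RNF150 and GAL, and the normoxic level of NGFR.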
